A study of Mus musculus and Homo sapiens with 12 samples.

Results

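Amino acid transporter genes were described in pancreatic ductal carcinoma grown in the liver, between lines selected for liver metastasis and the lines they came from. The genes were all rows whose symbol, in capitals, names a numbered member of the solute carrier (SLC) families 1A, 3A, 6A, 7A, 36A, 38A or 43A, a rule that uses no measured value. This gave 61 of 23201 genes in the mouse table and 38 of 18190 in the human table. In all, 62 of 28079 symbols were members, 37 of them in both tables, 24 in the mouse table alone and 1, SLC6A20, in the human table alone. The mouse genes Slc6a20a and Slc6a20b end in a letter and fall outside the rule.

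The 12 samples formed 4 groups of 3 biological replicates. KPC LM2 is a mouse pancreatic cancer line after 2 generations of selection as liver metastases, and KPC is its parental line. PANC1 LM3 is a human pancreatic cancer line after 3 such generations, and PANC1 is its parental line. Every group received 500000 cells by injection into the spleen (day 1), liver tumours were taken on day 21 for RNA sequencing, the genotype was labelled WT, and the host strain, sex and age are not given in the sources used here. The labels do not say how many clones a selected line holds, or whether replicates came from separate animals. P-values therefore measure only the spread between these samples, which may be technical. The titles name cells while the protocol names tumours.

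Each model was given as 1 table of the authors' own comparison, with no value per library, so values in each sample and the depth of each sample are unknown. Which line stands on top of the fold change is not stated in either table. Signs are therefore reported only as they are listed, and none is tied to a selected or a parental line. Errors after ± are the listed standard errors (SE) on the log2 scale, and a gene was called where the Wald test's adjusted p, taken over all genes tested, was under 0.05. The level of a gene below is its mean normalised count over all libraries of a model. In bulk samples, fewer cells of a type and less RNA per cell cannot be told apart.

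The epithelial identity of the samples was checked on keratins 7, 8, 18 and 19, E-cadherin and EPCAM. In the authors' deposited table for KPC each of these genes had a level of at least 524, and 2 of 6 were called, Krt7 at 1.18 ± 0.18 and Epcam at -1.14 ± 0.28. Of all KPC genes at a level of 64 or more, 12.7% were called. In the authors' deposited table for PANC1 the levels ranged from 45.4 for KRT7 to 49702 for KRT8, and 4 of 6 were called negative, KRT8 at -4.35 ± 0.06 and CDH1 at -3.92 ± 0.10 among them, while EPCAM was called positive at 0.97 ± 0.10. Of all PANC1 genes at 64 or more, where 5 of the 6 lie, 69.3% were called. In the authors' deposited table for KPC the hepatocyte markers had levels from 2.86 to 39.3 and summed to 126, against 9106250 for all genes. Of 8 tested, 0 were called by the Wald test (1 positive and 3 negative at an unadjusted p under 0.05), with a median log2 fold change of -1.13, Alb at -1.61 ± 0.80 and Slc10a1 at 0.98 ± 0.38. Over all KPC genes under a level of 64, 8.19% were called. KPC leukocyte, fibroblast and endothelial markers summed to 585, 134 and 137, with Cd14 making 471 of the leukocyte sum. Their medians were -1.29, -1.73 and -1.08, where all genes under a level of 64 had a median of -1.125. Among these markers Adgre1 was called at -2.88 ± 0.75 and Col1a1 at -1.84 ± 0.63 in the authors' deposited table. After a running median over level was subtracted, 0 genes of these lists were called, and 5.65% of all genes were. Recentred on genes at 64 or more, each list had 2 calls, and 10.7% of all genes were called. The lists held 8 leukocyte, 8 fibroblast and 7 endothelial markers tested. The table for PANC1 counts human genes, and the host is not given in the sources used here. Whether reads of a host of another species were counted under these symbols is not known. In that table of the authors, CD68 (level 1103, 1.91 ± 0.07), COL3A1 (level 405, 1.05 ± 0.11) and ASGR1 (2.01 ± 0.53) were called positive, and CPS1 (level 132, -1.45 ± 0.18), ITGAM (-0.92 ± 0.34) and CDH5 (-4.09 ± 0.95) negative. The part of host cells in the values below was not tested.

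Amino acids cross membranes through several carrier families. The SLC1A carriers couple glutamate or small neutral amino acids to sodium. SLC7A light chains work as exchangers, most of them bound to a heavy chain of the SLC3A family, and the cationic amino acid carriers of the same family work alone. The SLC38A carriers bring in glutamine and alanine with sodium. The SLC6A carriers move neurotransmitters, taurine, creatine and neutral amino acids with sodium and chloride. The SLC36A family includes proton-coupled carriers, and the SLC43A carriers pass large neutral amino acids down their gradient. Pancreatic carcinoma cells are known for a high demand for glutamine and cystine, and amino acid shortage raises several of these carriers through the transcription factor ATF4.

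Between PANC1 LM3 and PANC1 samples, the largest changes among the transporters belonged to a pair of carriers of the nervous system and epithelia, SLC1A1 and SLC6A15, positive at 7.03 and 6.79 on the log2 scale. The taurine carrier SLC6A6, the neutral amino acid exchanger SLC1A4 and the branched-chain carrier SLC43A2 were negative. The heavy chain SLC3A2 was positive while its light chains SLC7A5 and SLC7A6 were negative. Of 38 members tested, 21 were called, 7 positive and 14 negative, where 52.5% of all 17838 genes tested were called, 26% positive and 26.5% negative. The share of members called was 55.3%, close to that background. Among genes at a level of 64 or more, 16 of 24 members (66.7%) and 69.3% of all genes were called. The median log2 fold change of the 38 members was 0.11 and that of all genes tested was -0.002.

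**Figure D1:**
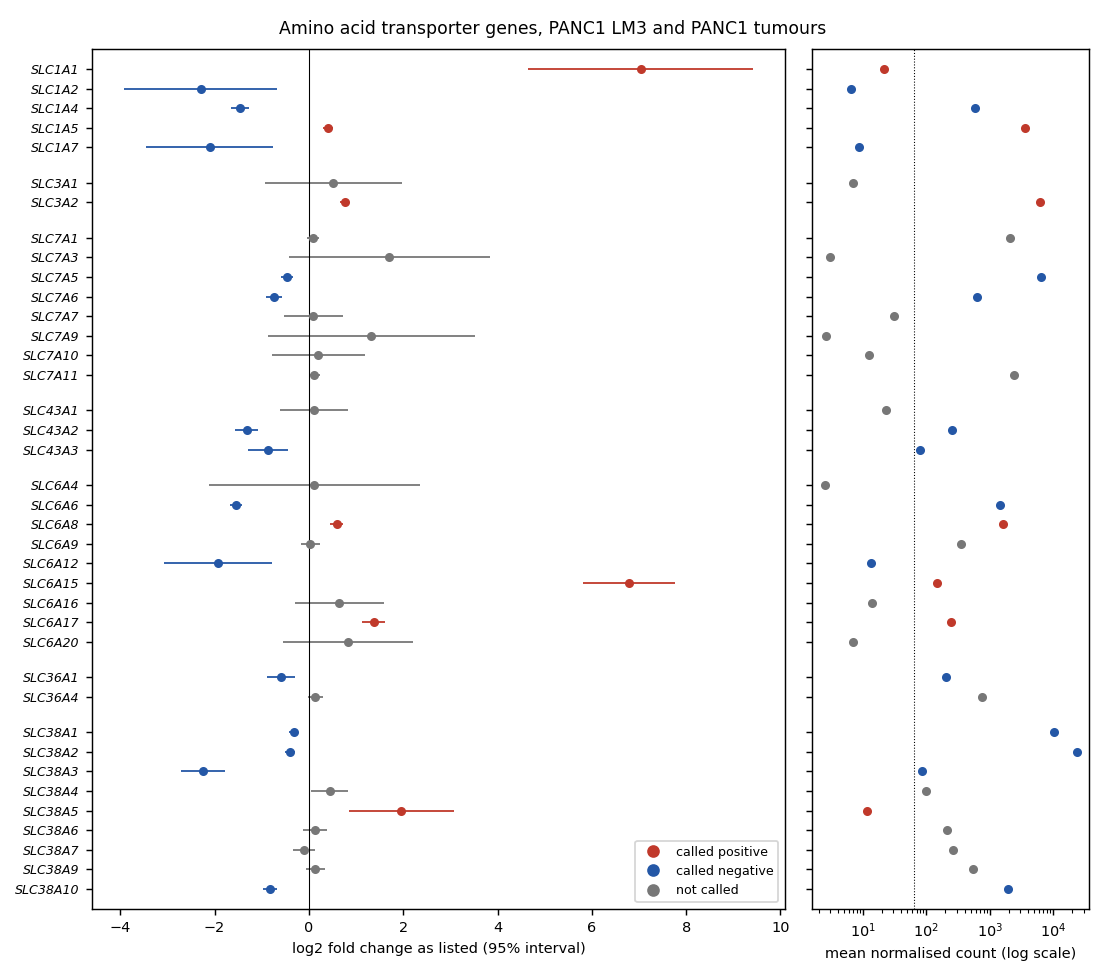
Members in the comparison of PANC1 LM3 and PANC1 samples, 1 row per gene in blocks by family. Left, log2 fold change as listed with its 95% interval. Right, mean normalised count on a log scale, with a dotted line at 64. Colours give the call. SLC1A1 (7.03) and SLC6A15 (6.79) lie apart from the other members, which run from -2.30 to 1.96.

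Among the glutamate carriers, SLC1A1, which encodes EAAT3, a carrier of glutamate, aspartate and cysteine, was listed at 7.03 ± 1.22 with a level of 21.2 in the authors' deposited table for PANC1 (Wald test adjusted p = 3.65e-08). With 3 libraries in each group, that fold and mean correspond to about 42.1 normalised counts in the higher group and 0.322 in the lower, so the fold rests on a group near 0 and is a fitted value, not a bound. The glial glutamate carrier SLC1A2 (EAAT2) was at -2.30 ± 0.83 and the retinal carrier SLC1A7 (EAAT5) at -2.10 ± 0.69 in the authors' deposited table, with levels of only 6.39 and 8.75. The 3 glutamate carriers tested were thus all called, with both signs, and none had a level of 64. Of all genes under that level, 23.5% were called.

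The neutral amino acid exchangers of the same family split in sign at much firmer levels. SLC1A4 (ASCT1), which exchanges alanine, serine, cysteine and threonine, was at -1.46 ± 0.09 with a level of 576 in the authors' deposited table for PANC1. That is 2.76-fold between the groups (Wald test adjusted p = 3.98e-53). SLC1A5 (ASCT2), the main glutamine exchanger of many tumour cells, was at 0.40 ± 0.06 with a level of 3561 in the authors' deposited table, a 1.32-fold difference. Their 95% intervals, -1.65 to -1.28 and 0.29 to 0.51, do not overlap.

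The heavy chain SLC3A2 (4F2hc, also known as CD98) brings several SLC7A light chains to the cell surface. It was positive at 0.76 ± 0.05 with a level of 6197 in the authors' deposited table for PANC1, 1.69-fold between the groups (Wald test adjusted p = 1.55e-55). Its light chain SLC7A5 (LAT1), which takes up leucine and other large neutral amino acids, was negative at -0.47 ± 0.06 with a level of 6485 in the authors' deposited table. SLC7A6 (y+LAT2), which exports arginine in exchange for glutamine and sodium, was negative at -0.74 ± 0.09 with a level of 633. The intervals were 0.67 to 0.86 for the heavy chain, -0.59 to -0.34 for SLC7A5 and -0.92 to -0.57 for SLC7A6, so the heavy chain lay on the other side of 0 from both. SLC7A5 has near-identical pseudogene copies, and how reads were shared between them is not given in the sources used here. The copy SLC7A5P2 was listed at 0.24 ± 0.20 with a level of 97.4 in the authors' deposited table. SLC7A6 shares its locus with SLC7A6OS, listed at 0.19 ± 0.19 with a level of 96.6, and the kit named in the labels does not mark strand.

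The cystine/glutamate exchanger SLC7A11 (xCT), the third abundant partner of SLC3A2, was not called. It stood at 0.11 ± 0.06 with a level of 2411 in the authors' deposited table for PANC1 (Wald test adjusted p = 0.092), with an interval from -0.001 to 0.23. After recentring on well-counted genes its adjusted p was 0.025, so its call depends on the scaling. An antisense gene, SLC7A11-AS1, was listed at -0.43 ± 0.42 with a level of 18.1. The other light chains had low levels and were not called, SLC7A7 at 0.09 ± 0.32 (level 31.0), SLC7A10 at 0.20 ± 0.50 (12.5) and SLC7A9 at 1.32 ± 1.12 (2.65) in the authors' deposited table. The heavy chain SLC3A1 (rBAT), which pairs with SLC7A9 in kidney, was at 0.52 ± 0.74 with a level of 6.95. The cationic amino acid carrier SLC7A1 (CAT1) was at 0.09 ± 0.06 with a level of 2079, not called, with an interval from -0.04 to 0.21. After the running median was subtracted it was called at 0.19 (adjusted p = 0.0074). SLC7A3, another cationic carrier, was at 1.71 ± 1.09 with a level of 3.05, also not called.

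The SLC38A family, which holds many glutamine carriers, had 4 negative and 1 positive call among 9 members tested. Of the 9, 5 were listed as negative and 4 as positive, with a median of -0.10. Over all genes tested 52.5% were called, 26.5% negative and 26% positive. At a level of 64 or more, where 8 of the 9 lie, the shares were 69.3%, 36.5% and 32.7%. SLC38A2 (SNAT2), which takes up neutral amino acids and is induced by their shortage, was at -0.41 ± 0.05 and SLC38A1 (SNAT1) at -0.33 ± 0.05 in the authors' deposited table for PANC1, with levels of 23521 and 10453. Both differences are small, at 1.33-fold and 1.25-fold. SLC38A10, a less studied member, was at -0.83 ± 0.08 (level 1935) and SLC38A3 (SNAT3), the glutamine carrier of liver and kidney, at -2.24 ± 0.24 (level 84.0) in the authors' deposited table. SLC38A5 (SNAT5) was the positive one, at 1.96 ± 0.57 with a level of 11.4 in the authors' deposited table. SLC38A4 (SNAT4) was listed at 0.44 ± 0.20 with a Wald test adjusted p of 0.055 and was not called; with genes at 64 or more alone it was at 0.042. The lysosomal carriers SLC38A9, an arginine sensor for the growth kinase complex mTORC1, and SLC38A7 were at 0.13 ± 0.10 and -0.10 ± 0.12, and SLC38A6 was at 0.13 ± 0.13, none of them called.

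The SLC6A family held the change with the largest Wald statistic of all members. SLC6A6, the taurine carrier, was at -1.54 ± 0.07 with a level of 1452 in the authors' deposited table for PANC1, 2.92-fold between the groups (Wald test adjusted p = 2.89e-117). SLC6A15 (B0AT2), a sodium-coupled carrier of branched-chain amino acids and proline known from neurons, was at 6.79 ± 0.50 with a level of 149 in the authors' deposited table (Wald test adjusted p = 9.97e-41). With 3 libraries in each group this corresponds to about 295 normalised counts in the higher group and 2.67 in the lower. SLC6A17 (NTT4), a neutral amino acid carrier of synaptic vesicles, was positive at 1.38 ± 0.12 with a level of 244 in the authors' deposited table. The creatine carrier SLC6A8 was positive at 0.59 ± 0.07 with a level of 1635; it has near-identical copies elsewhere in the human genome, so its count is uncertain. The betaine and GABA carrier SLC6A12 was negative at -1.93 ± 0.59 with a level of 13.4 in the authors' deposited table. The glycine carrier SLC6A9 was at 0.03 ± 0.11 with a level of 348, not called, with an interval from -0.18 to 0.23. The serotonin carrier SLC6A4 (level 2.53), SLC6A16 (14.1) and SLC6A20 (6.95) were not called.

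Among the remaining families the calls were negative. SLC43A2 (LAT4), a facilitated carrier of branched-chain amino acids, phenylalanine and methionine, was at -1.32 ± 0.13 with a level of 251 in the authors' deposited table for PANC1, 2.50-fold between the groups. SLC43A3, which by sequence belongs to that family but carries purine nucleobases, was at -0.87 ± 0.21 (level 79.2). SLC43A1 (LAT3) was at 0.11 ± 0.37 with a level of 23.4, not called. SLC36A1 (PAT1), a proton-coupled carrier found on lysosomes, was at -0.59 ± 0.15 (level 204), and SLC36A4 (PAT4), a carrier of proline and tryptophan, was at 0.13 ± 0.08 (level 752) in the authors' deposited table, not called.

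Between KPC LM2 and KPC samples, the glutamate carrier gene Slc1a2 was the transporter with by far the largest change among well-counted members. The exchanger gene Slc7a7 followed, and the abundant carriers Slc38a1 and Slc7a1 passed the threshold narrowly, all positive. The 4 members called negative, Slc1a1, Slc1a3, Slc38a4 and Slc6a3, lay at levels from 12.1 to 17.4. Of 58 members tested, 8 (13.8%) were called, 4 positive and 4 negative, where 10.4% of all 20050 genes tested were called, 5.77% positive and 4.6% negative. The median log2 fold change of the members was -0.89 and that of all genes tested was -0.08. Slc1a7, Slc38a3 and Slc38a5 had no adjusted p. By family, the calls were 3 of 6 SLC1A, 2 of 15 SLC7A, 2 of 9 SLC38A and 1 of 19 SLC6A members tested, and the 2 SLC3A, 4 SLC36A and 3 SLC43A members were not called. With fold changes recentred on genes at 64 or more, a shift of 0.22 on the log2 scale, 2 members were called positive and 7 negative, and over all genes 506 (2.52%) were positive and 1643 (8.19%) negative, in all 10.7%.

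**Figure D2:**
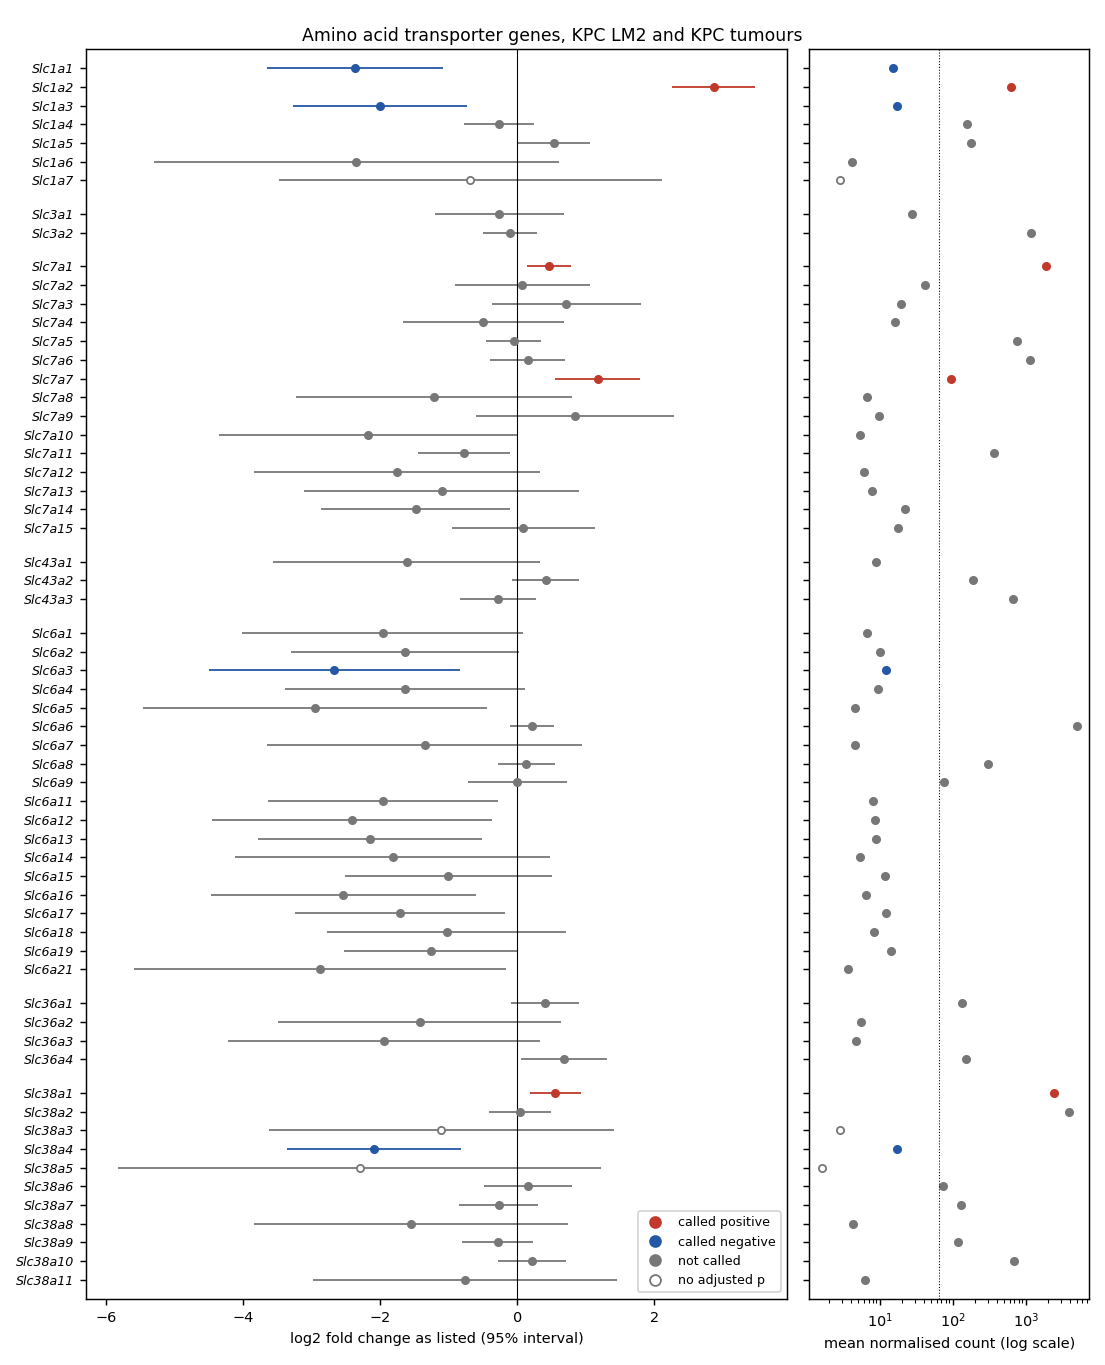
Members in the comparison of KPC LM2 and KPC samples, 1 row per gene in blocks by family. Left, log2 fold change as listed with its 95% interval. Right, mean normalised count on a log scale, with a dotted line at 64. Colours give the call, and open points have no adjusted p. Slc1a2 stands apart at 2.86, and most members left of the dotted line lie below 0 with wide intervals.

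Expression level and sign went together in this table, for all genes as for the transporters. Under a level of 64, 32 of 36 members tested (88.9%) and 80.5% of all genes were listed as negative, with median log2 fold changes of -1.64 over the members and -1.12 over all genes. At 64 or more, 7 of 22 members (31.8%) and 26.5% of all genes were negative, with medians of 0.15 and 0.22. Members called under 64 made 11.1% and all genes called there 8.19%. At 64 or more the shares were 18.2% and 12.7%. After the running median over level was subtracted, none of the 4 negative calls passed the Wald test adjusted over all genes, with adjusted p-values of 0.23 for Slc1a1, 0.34 for Slc38a4, 0.38 for Slc1a3 and 0.44 for Slc6a3. In that setting 2 members were negative at an unadjusted p under 0.05, and 2.73% of all genes were called negative. The PANC1 table was flatter, with called shares of 35.7% of members and 23.5% of all genes under 64, and medians of 0.36 over 14 members and 0.11 over all genes under 64, and of -0.04 over 24 members and -0.03 over all genes at 64 or more.

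**Figure D3:**
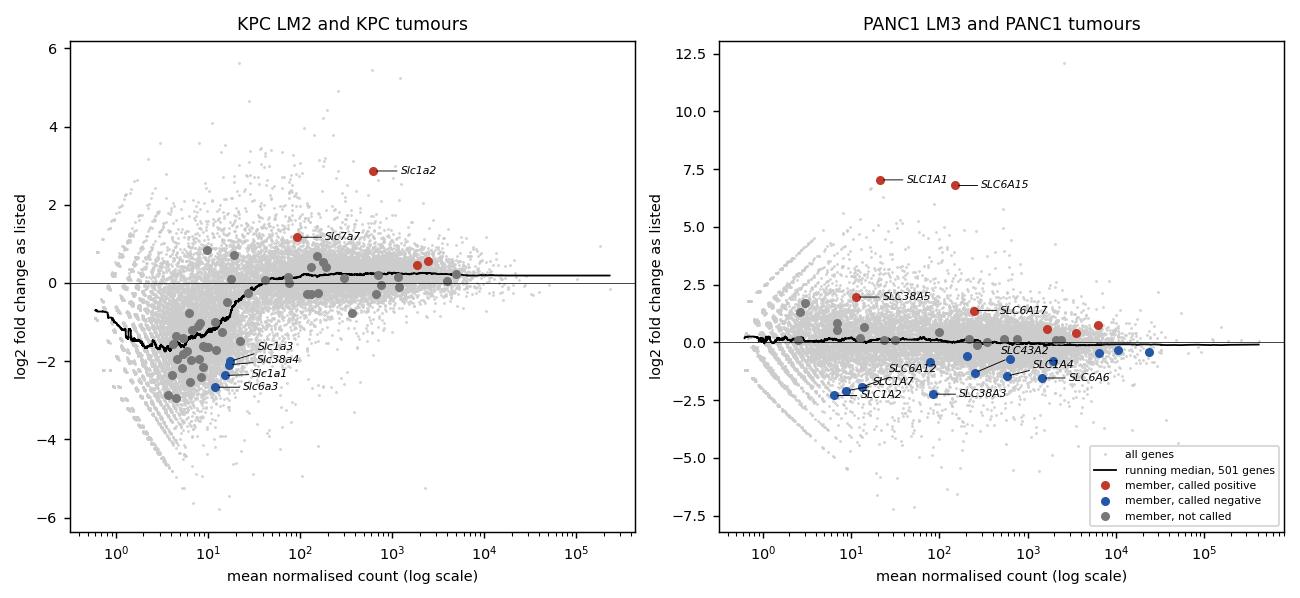
Log2 fold change as listed against mean normalised count (log scale) for all genes in grey, with the running median over genes ordered by level in black, for KPC LM2 and KPC (left) and PANC1 LM3 and PANC1 (right). Coloured points are members by call, with names for called members beyond 1 on the log2 scale in either direction. In the left panel the running median drops below 0 at low counts, and the 4 members called negative lie there, between -2.67 and -2.005.

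Slc1a2 (EAAT2), a glutamate carrier of astrocytes and of the liver, was listed at 2.86 ± 0.31 with a level of 622 in the authors' deposited table for KPC, 7.28-fold between the groups (Wald test adjusted p = 2.50e-17). With 3 libraries in each group this corresponds to about 1093 normalised counts in the higher group and 150 in the lower. After the level trend was subtracted it stood at 2.63 and was called under all 6 alternatives. The hepatocyte markers of this table, all at a level of 39.3 or less, had a median of -1.13. That is close to the -1.125 of all genes under 64. Whether hepatocytes contributed to the Slc1a2 value was not tested. The other glutamate carriers had the opposite sign to Slc1a2, at low level. Under a level of 64, 80.5% of all genes were listed as negative. Slc1a1 (EAAT3) was at -2.37 ± 0.65 (level 15.2) and Slc1a3 (EAAT1), the glutamate carrier of glia, at -2.005 ± 0.646 (level 17.4) in the authors' deposited table. Neither Slc1a1 nor Slc1a3 was called after the running median over level was subtracted. The neutral exchangers Slc1a4 and Slc1a5 were at -0.26 ± 0.26 and 0.54 ± 0.27, with levels of 156 and 178, and neither was called.

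The y+LAT1 gene Slc7a7, whose product exports arginine and lysine in exchange for neutral amino acids, was at 1.17 ± 0.31 with a level of 94.3 in the authors' deposited table for KPC (Wald test adjusted p = 0.0052). It too was called under all 6 alternatives, and these 2 genes were the only members of this table to be so. In the authors' deposited table the heavy chain Slc3a2 was at -0.10 ± 0.20 (level 1183), the light chain Slc7a5 at -0.05 ± 0.21 (level 755) and the light chain Slc7a6 at 0.15 ± 0.28 (level 1162), none called. Their intervals ran from -0.50 to 0.29, -0.46 to 0.35 and -0.39 to 0.70. The cystine exchanger Slc7a11 was at -0.78 ± 0.34 with a level of 370 in the authors' deposited table (Wald test adjusted p = 0.12). After recentring it was called at -0.999 (adjusted p = 0.039). Light chains and a heavy chain of kidney and brain, Slc7a8, Slc7a9, Slc7a10, Slc7a13 and Slc3a1, had levels from 5.28 to 27.5 and no call, with fold changes from -2.18 for Slc7a10 to 0.84 for Slc7a9.

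Other abundant carriers had smaller fold changes than Slc1a2, and most of them were not called. Slc6a6, the taurine carrier, had the highest level of any member, 4994, and was at 0.22 ± 0.16 in the authors' deposited table for KPC, not called. Slc38a2 followed at 0.04 ± 0.23 (level 3973), not called. Slc38a1 was called at 0.55 ± 0.19 (level 2446, Wald test adjusted p = 0.041) and Slc7a1 at 0.46 ± 0.16 (level 1896, adjusted p = 0.049) in the authors' deposited table. After recentring, neither passed, with adjusted p-values of 0.23 and 0.32. Slc43a3 was at -0.28 ± 0.28, Slc38a10 at 0.22 ± 0.26 and Slc6a8 at 0.13 ± 0.21, with levels of 666, 700 and 299.9, none called.

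Levels of different genes can be compared only per length, which was done for the mouse with exonic lengths from GENCODE M21 (GRCm38), another annotation than the authors'. Per kilobase of exon, Slc6a6 came first with 591 normalised counts per kilobase, followed by Slc38a2 (450), Slc3a2 (335), Slc7a6 (254) and Slc7a5 (204). These 5 genes together with Slc7a1 (164), Slc43a3 (149) and Slc38a1 (142) led the 61 members, and Slc1a2 stood at rank 11 with 47.3 over both groups. No spread over libraries is available for these levels.

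The SLC6A family of KPC was listed as negative for 16 of 19 members, all 16 at a level under 16, where 89.6% of all genes were listed as negative with a median of -1.43. The family had 1 call, the dopamine carrier Slc6a3 at -2.67 ± 0.93 in the authors' deposited table. The 3 SLC6A members at 64 or more, Slc6a6, Slc6a8 and Slc6a9, lay within 0.22 of 0. Members that lie side by side in the mouse genome did not share a value: Slc38a1, Slc38a2 and Slc38a4, adjacent in RefSeq's annotation of GRCm38, stood at 0.55, 0.04 and -2.09. Slc38a4, an imprinted gene in mouse, was called at -2.09 ± 0.65 with a level of 17.0 in the authors' deposited table. Of the SLC36A carriers, Slc36a1 was at 0.40 ± 0.25 and Slc36a4 at 0.68 ± 0.32, and of the SLC43A carriers Slc43a2 was at 0.41 ± 0.25, none called.

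Promoter sequences are shown for the members that hold the composite ATF4 and C/EBP element, since Slc7a7 was called, Slc7a11 is an established ATF4 target and ATF4 target genes were measured in the same table. RefSeq promoters (GRCm38.p6, 250 bases before to 50 after the start site) were matched for 43 of the 61 mouse members. The element was searched as TGATGCAA on both strands, the reverse being TTGCATCA, and was found in 3 members (6.98%), Slc1a4, Slc7a7 and Slc7a11, against 1.03% of 27025 genes. It was 1 of 6 motifs looked at, and was picked for printing after its matches were seen. All 6 were more frequent in members than in all genes, among them GGGCGG (65.1% and 38.2%) and TGACTCA (11.6% and 5.95%), so a higher share is not particular to this element. Capitals mark the element.
Slc7a7, chr14:54417895-54418194, strand -: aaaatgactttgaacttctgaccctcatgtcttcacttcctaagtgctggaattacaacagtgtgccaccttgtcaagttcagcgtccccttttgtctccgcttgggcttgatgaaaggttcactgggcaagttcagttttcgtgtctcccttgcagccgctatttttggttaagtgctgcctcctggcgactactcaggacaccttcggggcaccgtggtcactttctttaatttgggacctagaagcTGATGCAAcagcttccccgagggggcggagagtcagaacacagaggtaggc
Slc7a11, chr3:50443564-50443863, strand -: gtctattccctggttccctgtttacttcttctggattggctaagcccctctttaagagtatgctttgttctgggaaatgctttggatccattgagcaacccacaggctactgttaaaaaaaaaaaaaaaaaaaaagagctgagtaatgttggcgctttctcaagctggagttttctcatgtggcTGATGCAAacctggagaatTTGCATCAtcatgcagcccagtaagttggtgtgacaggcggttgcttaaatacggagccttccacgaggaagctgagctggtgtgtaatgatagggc
Slc1a4, chr11:20332664-20332963, strand -: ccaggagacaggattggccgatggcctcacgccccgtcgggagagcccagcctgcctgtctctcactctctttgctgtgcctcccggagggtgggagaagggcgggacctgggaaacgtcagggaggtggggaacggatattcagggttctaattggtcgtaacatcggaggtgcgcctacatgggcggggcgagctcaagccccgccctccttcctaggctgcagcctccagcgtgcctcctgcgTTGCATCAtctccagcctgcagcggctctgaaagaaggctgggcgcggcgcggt
In Slc7a11 the element occurs 2 times, once on each strand, starting 66 and 47 bases before the start site. In Slc7a7 and Slc1a4 it spans the start site, beginning 1 and 4 bases before it. RefSeq gives Slc7a7 another start site further downstream, and the upstream-most window is shown. A match is a description of the sequence, and the 3 genes did not share a value: in the authors' deposited table for KPC, Slc7a7 stood at 1.17 ± 0.31, Slc7a11 at -0.78 ± 0.34 and Slc1a4 at -0.26 ± 0.26.

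Genes of the ATF4 and amino acid response were given as the other genes of the pathway. In PANC1, 15 of 25 tested were called positive and 7 negative, with a median log2 fold change of 0.35, against -0.03 over all genes at 64 or more, where 24 of the 25 lie. Positive calls made 60% of the list and 32.7% of all genes at that level, and negative calls 28% and 36.5%. The phosphatase subunit PPP1R15A was at 2.20 ± 0.07, the hormone STC2 at 1.47 ± 0.05, DDIT3 at 1.32 ± 0.06 and TRIB3 at 1.31 ± 0.08 in the authors' deposited table. On the negative side were the serine synthesis enzyme PSPH at -0.91 ± 0.08, the glutathione-degrading enzyme CHAC1 at -0.82 ± 0.10, the kinase EIF2AK3 at -0.62 ± 0.11 and SHMT2 at -0.42 ± 0.08. In KPC 3 of 25 (12%) were called positive and 4 (16%) negative, with a median of -0.17. Over all genes at 64 or more, where 21 of the 25 lie, 10.6% were positive and 2.11% negative, with a median of 0.22. Atf3 was at 1.86 ± 0.30, Ppp1r15a at 0.91 ± 0.20 and Aldh1l2 at 1.23 ± 0.32, and Trib3 at -1.75 ± 0.39, Chac1 at -1.90 ± 0.45, Asns at -0.68 ± 0.24 and Mthfd2 at -0.59 ± 0.19 in the authors' deposited table. In PANC1 the asparagine synthetase gene ASNS was positive, at 1.04 ± 0.15.

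Enzymes of glutamine, glutamate, cystine and arginine use had 14 positive and 9 negative calls among 31 tested in PANC1 (74.2%, against 69.3% of all genes at 64 or more, where 24 of the 31 lie), with a median of 0.15. The aspartate aminotransferase gene GOT1 was at 1.28 ± 0.06, ODC1 at 0.58 ± 0.06 and the argininosuccinate synthase gene ASS1 at 0.95 ± 0.10 in the authors' deposited table. OAT at -0.55 ± 0.06, GSR at -0.68 ± 0.09, the glutamine synthetase gene GLUL at -0.50 ± 0.09 and GCLM at -0.35 ± 0.07 stood on the other side. In KPC 2 of 33 were positive and 1 negative, with a median of -0.06: Gsr at 0.80 ± 0.28, Asl at 0.65 ± 0.21 and Kynu at -2.62 ± 0.77 in the authors' deposited table. That is 9.09% of the list, against 10.4% of all genes and 12.7% of genes at 64 or more, where 25 of the 33 lie. Gsr and Asl were not called after recentring, nor any of these 3 after the running median was subtracted.

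Genes that signal amino acids to mTORC1 had 10 positive and 9 negative calls among 33 tested in PANC1, with a median of -0.01. That is 57.6%, under the 69.3% of all genes at 64 or more, where 32 of the 33 lie. The arginine sensor CASTOR1 was at 1.58 ± 0.16, the leucine sensor SESN2 at 0.67 ± 0.07, RRAGA at 0.96 ± 0.11 and NPRL2 at 0.73 ± 0.10 in the authors' deposited table. LAMTOR1 was at -0.92 ± 0.08, RHEB at -0.59 ± 0.06, SAR1B at -0.53 ± 0.06 and CASTOR2 at -1.91 ± 0.24. In KPC 2 of 33 were called, Lamtor4 at 1.02 ± 0.26 and Castor2 at 1.03 ± 0.30 in the authors' deposited table, both positive, with a median of 0.39. Castor2 was not called after recentring or after the running median was subtracted. Over all genes at 64 or more, where 28 of the 33 lie, the median was 0.22 and 12.7% were called, against 6.06% of the list. By the Wald test at an unadjusted p under 0.05, 12 genes of the list (36.4%) were positive and 0 negative, against 23.1% and 4.35% of all genes at 64 or more.

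Carriers of amino acids, peptides and glutathione from other families had 4 positive and 5 negative calls among 20 tested in PANC1. That is 45%, under the 52.5% of all genes and the 69.3% of genes at 64 or more, where 14 of the 20 lie. The median of the list was -0.15. The mitochondrial glutamate carrier SLC25A18 was at -3.04 ± 0.38, the aspartate-glutamate carrier SLC25A13 at -0.61 ± 0.07, SLC25A40 at -0.70 ± 0.10 and the serine carrier SFXN1 at -0.30 ± 0.06 in the authors' deposited table. SFXN3 was at 0.79 ± 0.12, the vesicular glutamate carrier SLC17A7 at 2.63 ± 0.65, SLC25A22 at 0.47 ± 0.17 and SLC25A39 at 0.15 ± 0.06. In KPC 0 of 23 passed the Wald test adjusted over all genes, with 2 positive and 2 negative at an unadjusted p under 0.05 and a median of 0.15.

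The models were compared over the 34 members tested in both tables, matched on the symbol. SLC1A1, SLC1A2 and SLC38A1 were called in both, each with opposite signs in KPC and PANC1. In KPC, SLC38A1 was not called after recentring or after the running median was subtracted (Wald test adjusted p = 0.23 and 0.44). Nor was SLC1A1 called in KPC after the running median was subtracted (Wald test adjusted p = 0.23). In PANC1, SLC1A2 was not called at a threshold of 0.01. Of all 12777 shared symbols 972 were called in both, 556 of them with opposite and 416 with the same signs. Whether both tables put the same kind of line on top is not stated, so the signs are compared as listed. Of the 34, 3 were called in KPC alone, 15 in PANC1 alone and 13 in neither, where the counts over all shared symbols were 522, 6850 and 4433. The difference of the log2 fold changes, KPC minus PANC1, was tested against its combined SE with a two-sided normal p adjusted over 12777 shared symbols. It passed for 16 members (47.1%), where 34.9% of all shared symbols passed. At 64 or more in both tables, 9 of 20 members (45%) passed, against 39.3% of all shared symbols.

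The taurine carrier showed the smallest adjusted p of the difference. In the authors' deposited tables it was at 0.22 ± 0.16 in KPC and at -1.54 ± 0.07 in PANC1, and the difference was 1.76 ± 0.18 (adjusted p = 2.41e-21). SLC6A15 differed by -7.80 ± 0.92 (adjusted p = 1.35e-15), with -1.01 ± 0.77 at a level of 11.8 in KPC and 6.79 ± 0.50 in PANC1 in the authors' deposited tables. SLC1A1 differed by -9.40 ± 1.38 and SLC1A2 by 5.16 ± 0.89, with levels of 15.2 in KPC and 21.2 in PANC1 for SLC1A1, and of 622 in KPC and 6.39 in PANC1 for SLC1A2. SLC43A2 differed by 1.74 ± 0.28, SLC1A4 by 1.201 ± 0.276 and the heavy chain SLC3A2 by -0.86 ± 0.21. With the signs of the PANC1 table turned round, an alternative added after the data were seen, 14 members (41.2%) and 30% of all shared symbols differed. With either sign 8 members (23.5%) and 13.4% of all shared symbols differed, the members being SLC1A1, SLC1A4, SLC38A4, SLC3A2, SLC43A2, SLC6A15, SLC6A6 and SLC7A7. The difference was not called for SLC7A5 (0.41, interval -0.01 to 0.83), SLC1A5 (0.14, interval -0.40 to 0.67) or SLC38A2 (0.45, interval -0.02 to 0.91).

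**Figure D4:**
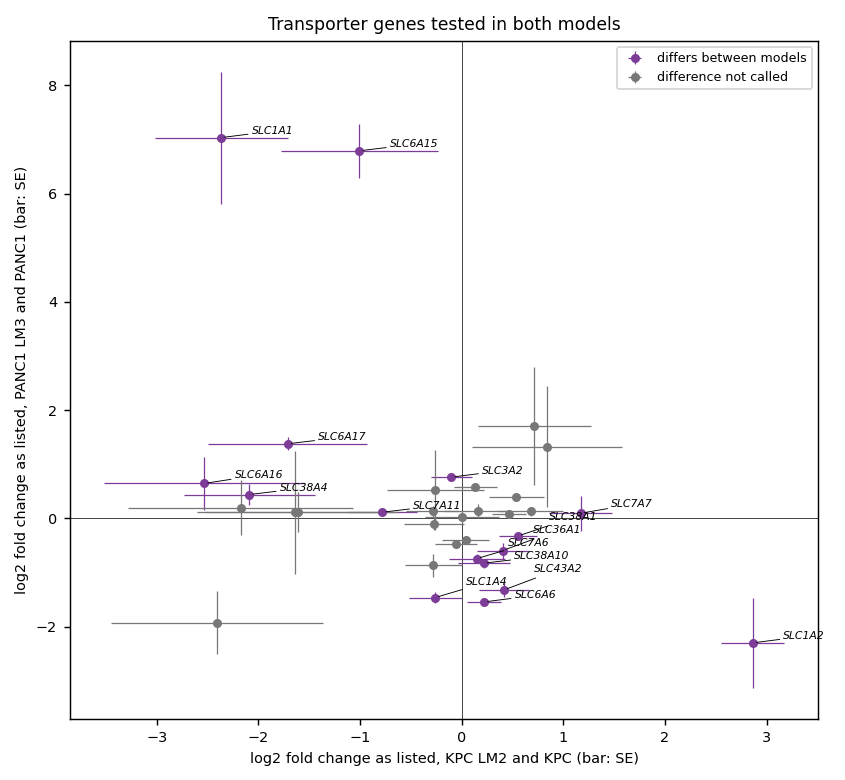
Log2 fold changes as listed for the 34 members tested in both models, KPC LM2 and KPC on the horizontal axis and PANC1 LM3 and PANC1 on the vertical axis, with bars of 1 SE. Purple, named points differ between the models. SLC1A1 and SLC6A15 lie at the upper left, SLC1A2 at the lower right, and the other named points nearer the centre.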

How the data were processed

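RNA of 12 samples was sequenced as total RNA prepared with a TruSeq kit, per the labels' protocols. The submitters' processing notes name DESeq2 1.24, MultiQC 1.9, featureCounts 2.0.0 and STAR 2.7.6a, with hg19 and mm39 as builds. Settings, annotation and model design are not given in the sources used here. The authors deposited 1 comparison table per model: the mean normalised count (a signal, counts divided by size factors as DESeq2 names it), the log2 fold change and its SE on the log2 scale, the Wald score, the p-value and the adjusted p-value. The deposited score equalled the fold change over its SE within 9.2e-08, and the adjusted p-value a Benjamini-Hochberg adjustment within 2.5e-06. Adjusted values cover 20050 KPC genes and 17838 PANC1 genes. The planned edgeR test on counts could not be run on these columns.

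Members, gene lists and tests were chosen with earlier results of these data known. Named members are all those called, the SLC3A heavy chains and their light chains, and the 10 with the highest mean normalised count per table; some members outside that rule are named to complete a family and were picked with their values in view. Pathway genes are named by smallest adjusted p, at most 4 for each list and sign; ASNS in PANC1 was added after its value was seen. 1 gene that this rule names is not reported here. Alternatives were a level of 64 or more, recentring on the median of those genes, subtraction of a running median over level, adjustment without the authors' filter, a threshold of 0.01, and a floor of 1 on the absolute log2 fold change. Steps were run on simulated data whose noise was drawn from the listed SE, so these runs could not check the listed SE themselves. Software was matplotlib 3.10.9, scipy 1.17.1, pandas 2.3.3 and numpy 2.4.6 under Python 3.11.15.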

Additional observations from a re-analysis of the deposited data

Results flagged for a closer look

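The difference of log2 fold changes between the models, KPC minus PANC1 with signs as listed, passed its test (two-sided normal p adjusted over 12777 symbols) for 16 members. Among glutamate and neutral amino acid carriers it was -9.40 for SLC1A1, 5.16 for SLC1A2 and 1.201 for SLC1A4. For the heavy chain and light chains it was -0.86 for SLC3A2, 0.89 for SLC7A6, 1.08 for SLC7A7 and -0.89 for SLC7A11. Among the SLC6A carriers it was 1.76 for SLC6A6, -7.80 for SLC6A15, -3.18 for SLC6A16 and -3.09 for SLC6A17. The SLC38A carriers had 0.88 for SLC38A1, -2.53 for SLC38A4 and 1.04 for SLC38A10, and the others 0.997 for SLC36A1 and 1.74 for SLC43A2. After the running median over level was subtracted, the difference no longer passed for SLC38A4 (adjusted p = 0.069), SLC6A16 (0.23), SLC6A17 (0.054), SLC7A6 (0.11) and SLC7A7 (0.075), and after recentring it did not pass for SLC7A6 (0.077) and SLC7A7 (0.15). The part of species, host and number of selection rounds cannot be told apart in these differences.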

How the results depend on the processing

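In KPC, 4 members were called positive, and 2 were at an adjusted p under 0.01, with an absolute log2 fold change over 1, after recentring and after the running median was subtracted. The 4 negative calls became 1 at an adjusted p under 0.01, 7 after recentring, 0 among genes at a level of 64 or more (1 at an unadjusted p under 0.05 by the same Wald test) and 0 after the running median was subtracted (2 at an unadjusted p under 0.05). The 8 calls in all became 3 at 0.01 (5.17%, all genes 4.43%), 4 at 64 or more (18.2%, all genes 13.8%) and 2 with the running median subtracted (3.45%, all genes 5.65%). In PANC1, with an absolute log2 fold change over 1, the positive calls were 4, the negative 7 and all 11 (28.9%, against 15.5% of all genes), since smaller changes are left out. The 16 members that differed between the models became 9 at 64 or more in both tables, where fewer genes are tested. Signs turned in KPC for members that were not called: after recentring and after the running median was subtracted, Slc38a10 stood at -0.0028 and -0.031, Slc6a8 at -0.086 and -0.094, Slc7a6 at -0.068 and -0.089 and Slc38a2 at -0.18 and -0.19, and under the running median alone Slc7a13 stood at 0.21, Slc7a8 at 0.16 and Slc6a15 at 0.18. The cause was not tested.

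No paired analysis was possible because the tables hold comparisons and no value per library. For the same reason leaving out a replicate, another normalisation and a count test were not run, and it is unknown whether 1 library decides a value. Depth is unknown.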
